A study of Mus musculus with 3 samples.

Results

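The collagen genes are the mouse protein-coding genes with a symbol made of Col, a type number, the letter a and a chain number, such as Col1a1. Of 21883 protein-coding genes placed on the nuclear chromosomes of mm10, 44 carried such a symbol. FOXF1, a forkhead transcription factor of the lung mesenchyme and endothelium, was mapped by ChIP-seq, in which DNA bound by a protein is pulled down with an antibody and sequenced, in wild-type C57BL/6 whole lung taken at embryonic day 18.5. There were 2 biological replicates, each a pool of 3 lungs, and 1 input control, chromatin of the same stage taken without antibody, which entered through the authors' peak calls. Each replicate has its own list of summits, with 107378 nuclear summits in replicate 1 and 61172 in replicate 2, and each summit has a score, the authors' −log10 significance. A shared site is a pair of summits, 1 from each replicate, that are each other's nearest and lie at most 100 bp apart. It was counted for a collagen gene when it lay inside it, or within 100 kb of it with an end of that gene as the nearest protein-coding gene end. Whole lung holds many cell types, so a site cannot be placed in one of them, and weak binding in many cells cannot be told apart from strong binding in few. The sources used here do not give the read depth.

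Collagens are secreted or membrane-bound proteins whose chains wind in threes around each other into a rod and are then assembled outside the cell. Fibrillar collagens such as types I, III and V form the cables that carry tension in the walls of airways, vessels and alveoli. Type IV collagen forms the sheet-like network of basement membranes, on which lung epithelium and endothelium rest. The other types decorate fibrils, link the matrix to cells or form fine filaments around them.

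Most collagen genes had a shared FOXF1 site, and the sites were spread very unevenly among them. A shared site was counted for 34 of 44 collagen genes (77.3%), against 60.7% of all protein-coding genes. The 44 genes held 223 distinct shared sites, of 51013 in the genome, and 40 of these were counted for 2 neighbouring collagen genes. The number per gene had a median of 3 and reached 41 for Col4a1, against a median of 1 over all protein-coding genes. At least 10 sites were counted for 7 collagen genes (15.9%), against 4.89% of all protein-coding genes, while 13 collagen genes had 1 to 3 sites and 10 had none. The 7 genes were Col4a1, Col4a2, Col25a1, Col14a1, Col24a1, Col5a1 and Col28a1.

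**Figure D1:**
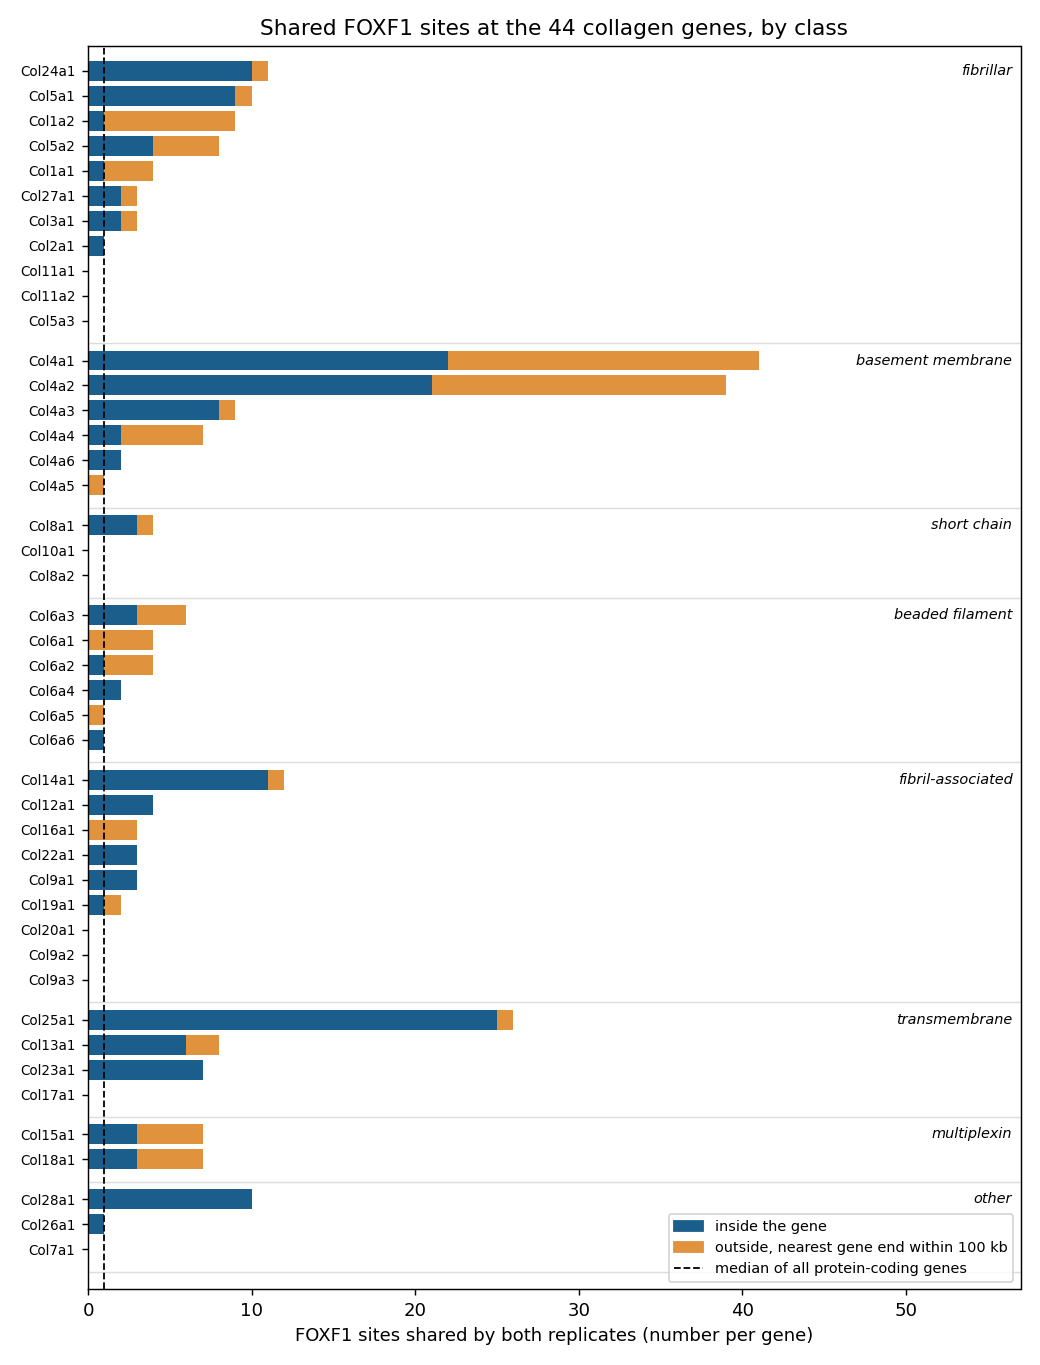
Number of FOXF1 sites shared by both replicates at each of the 44 collagen genes (horizontal axis), grouped by class. Blue bars count sites inside the gene and orange bars sites outside it, which for Col4a1 and Col4a2 lie mostly inside the partner gene. Col4a1 with 41 and Col4a2 with 39 had the highest counts, and 10 genes had no site.

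Collagen genes are long, with a median of 114 kb against 17.2 kb over all protein-coding genes, and long genes held more sites. Spearman's rho of length with number of sites was 0.46 across the 44 collagen genes and 0.5 across all protein-coding genes, as a description of genes that are not independent. Among the 22 collagen genes of at least the median collagen length, 21 (95.5%) had a site, against 88.2% of the 2029 protein-coding genes at least as long. Their median was 7 sites, against 5 for the 2029 genes, and 7 of them (31.8%) had at least 10 sites, against 31.9%. Among the 22 shorter collagen genes 13 (59.1%) had a site, against 57.9% of shorter protein-coding genes, with medians of 1.5 and 1 sites. Within length classes the shares of collagen genes thus lay close to those of protein-coding genes in general. The median density inside the long collagen genes was higher, at 2.74 sites per 100 kb against 1.84 for the 2029 genes. No test of a difference was made.

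**Figure D2:**
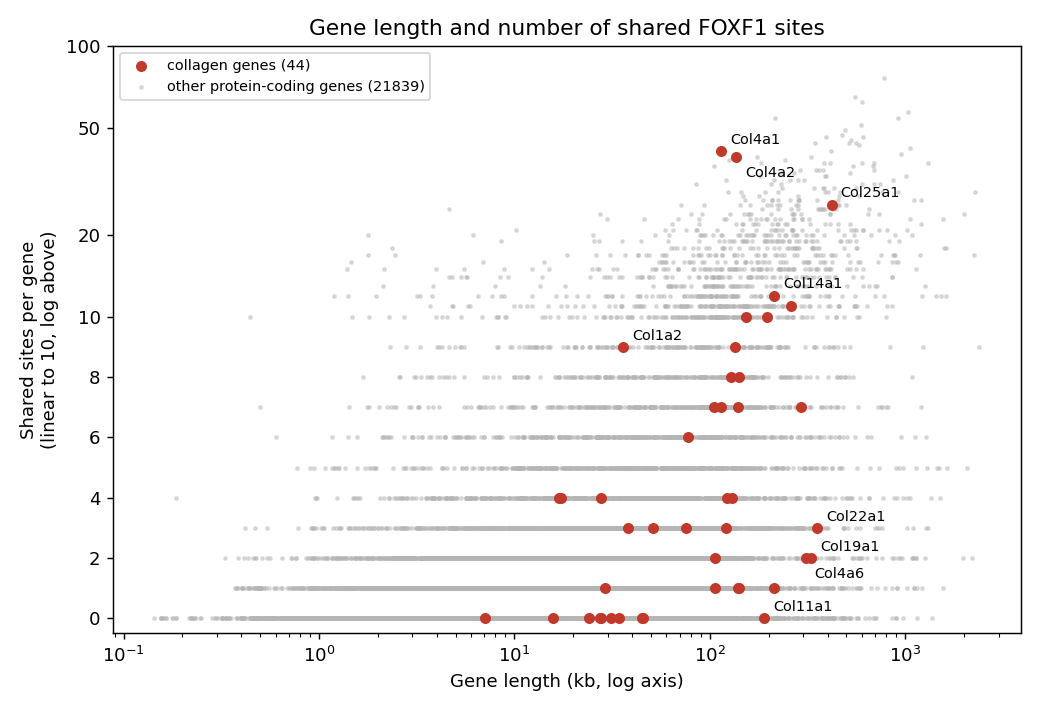
Gene length (horizontal, kb, log axis) against the number of shared FOXF1 sites per gene (vertical, linear to 10 and logarithmic above). Red points are the 44 collagen genes and grey points the other protein-coding genes. Col4a1 and Col4a2 lie high for their length, with 41 and 39 sites, and Col11a1 has no site over 190278 bp.

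The densest collagen locus was that of Col4a1 and Col4a2, which encode the chains of the most widespread type IV collagen. They lie head to head on chromosome 8, Col4a1 on the minus strand at positions 11198423 to 11312889 and Col4a2 on the plus strand at 11312805 to 11449287, so that their annotated starts overlap by 85 bp. The locus held 46 distinct shared sites, 20.6% of those at collagen genes, of which 22 lay inside Col4a1, 21 inside Col4a2 and 3 beyond the far end of Col4a1. Because the ends at the shared start adjoin, 34 sites were counted for both genes. Counting a site inside a gene for that gene alone left 25 for Col4a1 and 21 for Col4a2, a choice made after the data were seen.

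Density sets this locus beside other long genes without the double counting. Inside Col4a1 there were 19.2 shared sites per 100 kb and inside Col4a2 15.4, against a median of 1.84 for protein-coding genes of at least the median collagen length. Of those 2029 genes, 0 had a higher density than Col4a1 and 6 had a higher density than Col4a2. Neighbouring sites inside the pair of genes were a median of 4.17 kb apart, and the densest 20 kb held 9 sites and spanned the shared start.

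Scores at the locus ranged widely. They ran from 2.76 to 195.5 in replicate 1, with a median of 58.0, and from 4.6 to 98.8 in replicate 2, with a median of 21.9. The highest site lay inside Col4a2 at position 11367759, 54954 bp from its start, and scored 195.5 in replicate 1 and 98.8 in replicate 2. Next by rank were a site inside Col4a2 at 11347909 with 135.5 and 67.8, the site at the shared start at 11312765 with 98.5 and 84.9, and a site inside Col4a1 at 11297738 with 117.5 and 69.7. Of the 46 sites, 10 were among the 10000 highest summits of both replicates. High sites thus lay in both genes, on either side of the shared start.

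**Figure D3:**
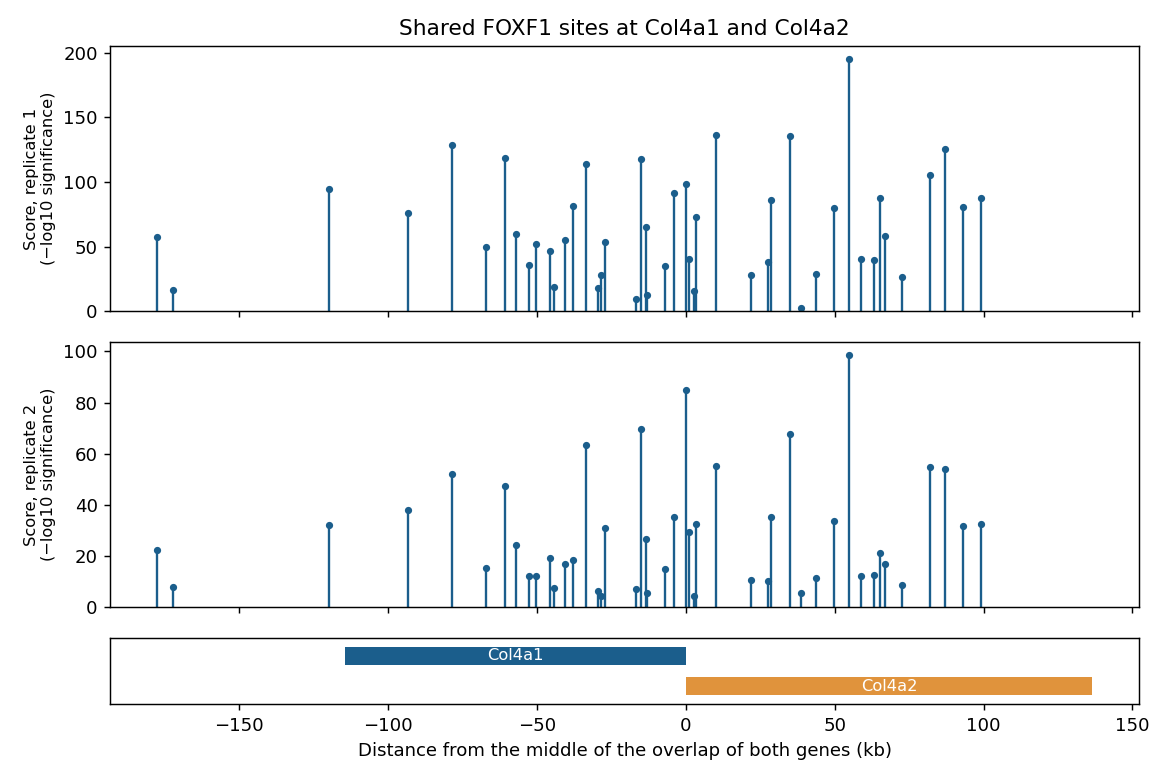
Shared FOXF1 sites at Col4a1 and Col4a2, placed by distance from the middle of the overlap of both genes (horizontal, kb). The panels give the score in replicate 1 and in replicate 2 (−log10 significance, each on its own scale), above the extent of both genes. The highest site, at 195.5 and 98.8, lies well inside Col4a2.

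The other type IV chains, found in more specialised basement membranes, had fewer sites. Col4a3 (chromosome 1, 82586921 to 82722059) and Col4a4 (82448419 to 82587034), which overlap by 114 bp, had 9 and 7 sites, of which 6 were shared between them. Of the 10 distinct sites 8 lay inside Col4a3 and 2 inside Col4a4, so most sites of this pair were on the Col4a3 side. Their highest site was at 82597483, inside Col4a3, scoring 133.9 in replicate 1 and 61.8 in replicate 2, and the next at 82641812 with 103.5 and 53.9. Col4a5 (X, 141475370 to 141689236) and Col4a6 (X, 141165403 to 141474095) lie 1274 bp apart and had 1 and 2 sites, none of them shared. The Col4a5 site, 6 bp outside the gene, scored 14.1 and 7.78, and the higher of the Col4a6 sites scored 37.5 and 15.5. At 213867 and 308693 bp both are long genes, with 0 and 0.648 sites inside per 100 kb, below the median of 1.84 for long protein-coding genes.

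Many collagen genes had a shared site right at an annotated start. Starts were available for 35 of the 44 genes from a RefSeq table of promoter windows on GRCm38.p6, the assembly of mm10, and a shared site lay within 1 kb of a start at 15 of them. Counted by window, these were 16 of 38 (42.1%), against 41.4% of 21262 windows of protein-coding genes, so the share was near the background. The 15 genes were Col3a1, Col5a1, Col24a1, Col27a1, Col1a2, Col4a1, Col4a2, Col4a4, Col4a5, Col6a2, Col6a3, Col13a1, Col16a1, Col18a1 and Col23a1, and Col4a1 and Col4a2 shared 1 site. Their site lay 26 to 126 bp from the nearest start, with a median of 61 bp, against 70 bp over all genes with such a site. At 10 of the 15 it lay downstream of the start. No site lay within 1 kb of the opposite end in a gene with a known strand. The genes without an entry in the table were Col1a1, Col2a1, Col4a3, Col5a2, Col9a3, Col12a1, Col14a1, Col22a1 and Col26a1.

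The windows below are shown because they hold a start site or the letters a forkhead factor prefers. Each is printed 5′ to 3′ on the strand of the gene, from RefSeq on GRCm38.p6, and is limited to bases outside annotated protein-coding genes, except for the last, which is 30 bases around the Col4a1 and Col4a2 start site on the strand of Col4a2. In Col3a1 (chr1:45311288-45311537, plus strand) and Col13a1 (chr10:61979207-61979358, minus strand) capitals mark forkhead heptamers. In Col16a1 (chr4:130047590-130047816, plus strand), Col4a5 (chrX:141475169-141475369, plus strand) and Col4a2 (chr8:11312750-11312779, plus strand) capitals mark the 11 bases centred on the shared site, the midpoint of both summits, and no motif.
Col3a1: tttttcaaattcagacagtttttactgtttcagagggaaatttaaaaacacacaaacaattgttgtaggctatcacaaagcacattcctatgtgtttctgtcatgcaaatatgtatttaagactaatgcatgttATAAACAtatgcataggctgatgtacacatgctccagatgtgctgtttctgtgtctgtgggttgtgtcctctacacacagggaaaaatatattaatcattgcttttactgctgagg
Col13a1: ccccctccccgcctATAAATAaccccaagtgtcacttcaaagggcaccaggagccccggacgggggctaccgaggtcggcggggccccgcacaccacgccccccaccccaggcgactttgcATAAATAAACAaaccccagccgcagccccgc
Col16a1: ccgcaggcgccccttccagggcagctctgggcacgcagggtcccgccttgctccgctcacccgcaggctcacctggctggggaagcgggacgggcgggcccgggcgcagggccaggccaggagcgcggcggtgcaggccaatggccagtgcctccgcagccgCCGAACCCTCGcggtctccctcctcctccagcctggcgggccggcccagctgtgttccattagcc
Col4a5: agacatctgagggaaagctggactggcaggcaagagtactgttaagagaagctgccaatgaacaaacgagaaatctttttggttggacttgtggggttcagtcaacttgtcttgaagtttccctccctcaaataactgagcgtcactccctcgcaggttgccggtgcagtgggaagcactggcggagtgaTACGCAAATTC
Col4a2: gagcgcgccgCCCGAGGAGCTccccaattt

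Forkhead letters were searched as 4 heptamers on both strands of each window, which runs from 250 bases before to 50 after the start. Over all 21262 windows GTAAACA was present in 3.01%, and ATAAACA was present in 3.92%. The other two were GTAAATA, present in 2.59% of windows, and ATAAATA, present in 4.74%; the last can overlap ATAAACA, as it does in Col13a1. At least 1 of the 4 was present in 7 of 38 collagen windows (18.4%), against 12.8% of all windows. They were those of Col3a1, Col13a1, Col6a1, Col6a4, Col8a1, Col10a1 and Col11a2. Among the 16 windows with a site within 1 kb of the start, 2 held such letters, Col3a1 and Col13a1, against 5 of the 22 others. Across all genes 8.26% of windows with such a site held them, below the 12.8% of all windows. In Col3a1 the match was ATAAACA, 116 bp before the start, and in Col13a1 ATAAATA lay 236 and 129 bp before it, the nearer of them overlapping an ATAAACA by 3 bases. A match is a run of letters and not a mapped site. The 16 windows had a median GC content of 63.3%, against 58.0% in the 22 others, and over all protein-coding genes the medians were 61.7% in windows with such a site and 51.7% in the others. Col3a1 was the lowest of the 16 at 37.7%.

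The start sites ranked differently in the 2 lists from the sites elsewhere. The percentile of a score is its rank from the lowest as a share of the same list, with ties given their mean rank. The lists differ in length, with 107378 summits in replicate 1 and 61172 in replicate 2. Across all shared sites the median percentile was 74.5 in replicate 1 and 53.0 in replicate 2. Equal percentiles are thus no neutral line, and groups of sites are compared with each other. Of the 17 collagen sites within 1 kb of a collagen gene end, 7 had a higher percentile in replicate 2 than in replicate 1 (41.2%), against 4 of the 206 others (1.94%). Their median percentiles were 68.7 in replicate 1 and 59.9 in replicate 2, against 74.9 and 44.9 for the others. The site inside Col1a1, 56 bp from its left end, scored 49.9 in replicate 1 and 51.4 in replicate 2, percentiles of 77.9 and 88.0. That of Col1a2, 92 bp downstream of the start, scored 33.1 and 35.5, percentiles of 65.9 and 76.4, and the start site of Col4a1 and Col4a2 had percentiles of 92.7 and 97.1. In these 3 cases the rank in replicate 2 was the higher. The same split was present over all protein-coding genes, where 35.1% of 8797 sites within 1 kb of an end had the higher percentile in replicate 2, against 2.83% of the others, and its cause was not tested.

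**Figure D4:**
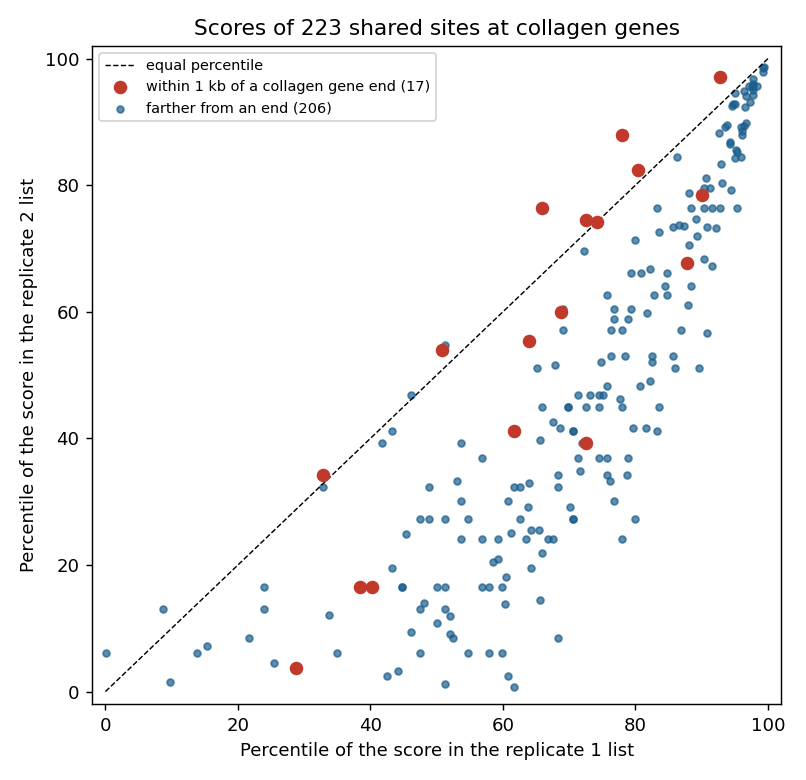
Percentile of the score within the replicate 1 list (horizontal) and within the replicate 2 list (vertical) for the 223 shared sites at collagen genes. Red points are the 17 sites within 1 kb of a collagen gene end and blue points the 206 others, and the dashed line marks equal percentiles. Most blue points lie below the line, and 7 red points lie above it.

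Collagen sites resembled shared sites in general in their replicate 1 scores and ranked somewhat lower in replicate 2. Their median score was 44.1 in replicate 1, the same as over all shared sites, and 16.0 in replicate 2, against 19.1. Their median percentile was 74.5 in replicate 1, again the same, and 46.3 in replicate 2, against 53.0. The replicate 2 difference varied with location. Sites inside and over 1 kb from an end had medians of 48.3 at collagen genes and 49.4 at all protein-coding genes. Outside sites over 1 kb from an end had 39.2 and 49.8, and sites within 1 kb of an end had 59.9 and 67.2. The part played by location was not tested. Among the 10000 highest summits of both replicates were 34 of the 223 (15.2%), against 14.7% of all shared sites. These lay at 17 collagen genes (38.6%), against 16.6% of all protein-coding genes, and at 13 of the 22 long collagen genes (59.1%), against 47.9% of equally long ones. Of the 223 sites 172 lay inside a collagen gene (77.1%), 43 of them in Col4a1 or Col4a2, against 65.4% of shared sites at protein-coding genes that lay inside one. A site inside the gene was present in 30 collagen genes (68.2%), against 48.1% of protein-coding genes, and a site within 1 kb of an end in 18 (40.9%), against 38.6%. The shares inside genes are not matched in length, with medians of 114 kb for collagen genes and 17.2 kb for protein-coding genes. The share of sites within 1 kb of a gene end was 7.62%, against 19.5%, and for long genes 5.92% against 5.47%.

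Among the fibrillar genes, those of types I, III and V, which build the interstitial fibrils of the lung, all had sites except Col5a3. Of 11 fibrillar genes 8 had a site, against 60.7% of all protein-coding genes, with 49 distinct sites. The 60.7% is not matched in length, since median lengths were 45.1 kb for the fibrillar genes and 17.2 kb for all protein-coding genes. Col1a1 (chromosome 11, 94936224 to 94953042), a chain of type I collagen, had 4 sites, with 1 inside the gene and the highest 39330 bp to its left, scoring 116.8 in replicate 1 and 45.5 in replicate 2. Col1a2 (chromosome 6, 4505618 to 4541543), its partner chain, had 9 sites, of which 8 lay outside. The highest of Col1a2 was 16147 bp upstream at 67.7 and 32.5. Its count depended on distant and weak sites, with 5 left in a window of 20 kb, 5 at a score of at least 10 in both replicates and 1 inside the gene. Col3a1 (chromosome 1, 45311538 to 45349706), the type III chain of extensible tissues, had 3 sites, at 51.8 and 22.1 for the one 11937 bp upstream, 43.6 and 33.3 for the one 99 bp inside, and 12.1 and 11.4 for the one 1456 bp inside. Each of these 3 genes thus had a site within 100 bp of an end, and of their sites the distal one of Col1a1 alone was among the 10000 highest summits of both replicates.

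The type V and XXIV genes held higher sites. Type V collagen starts fibrils and sets their width. Col5a1 (chromosome 2, 27886381 to 28039510) had 10 sites, the highest 11100 bp to the left of the gene scoring 152.7 in replicate 1 and 77.2 in replicate 2. Col5a2 (chromosome 1, 45374331 to 45503282), whose body lies 24.6 kb from Col3a1, had 8, led by a site 6192 bp inside its left end at 132.3 and 54.3 and by one 97 bp inside its right end at 84.5 and 38.0. Col24a1 (chromosome 3, 145292472 to 145552013), a less abundant fibrillar chain, had 11 sites. Its highest, at 145471347 deep inside the gene, scored 202.3 and 92.1, and 5 of its sites lay within 14.7 kb around it. Col27a1 had 3 sites, up to 71.5 and 21.4, and Col2a1 had 1 at 59.1 and 19.1.

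Type VI collagen forms beaded filaments around cells, and all 6 of its genes had at least 1 site, with 18 in all. The median length of these genes was 91.8 kb. A site was present at 60.7% of all protein-coding genes and 88.2% of those at least as long as the median collagen gene. Col6a1 and Col6a2, 85.2 kb apart on chromosome 10, had 4 each. Col6a1 (76708792 to 76726044) had none inside, and its highest, 33282 bp beyond its downstream end and so between both genes, scored 152.7 in replicate 1 and 68.6 in replicate 2. Col6a2 had its highest at the start, 98 bp downstream, with 54.8 and 42.8. Col6a3 had 6 sites, up to 91.6 and 27.8. Col6a4, Col6a5 and Col6a6, neighbours on chromosome 9, had 2, 1 and 1, of which the highest was inside Col6a4 at 128.6 and 51.4. For the chains Col6a1, Col6a2 and Col6a3, which make the common form of type VI, 14 of the 18 sites were thus counted. Most of these 14 lay outside the genes. Inside them lay 0, 1 and 3 sites, against 2, 0 and 1 inside Col6a4, Col6a5 and Col6a6. A window of 5 kb gave the same counts for each gene.

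Fibril-associated collagens bind to the surface of fibrils. A site was present at 6 of their 9 genes, against 60.7% of all protein-coding genes, with 27 in all. Here too the 60.7% is not matched in length, with medians of 75.2 kb for this class and 17.2 kb for all protein-coding genes. Col14a1 (chromosome 15, 55307644 to 55520803) had 12, of which 5 lay within 12.8 kb at 55471403 to 55484241, and 4 of those 5 were among the 10000 highest summits of both replicates. The highest of them scored 154.0 in replicate 1 and 81.6 in replicate 2. Col14a1 had in all 5 of the 6 such high sites in this class. Col12a1 (chromosome 9, 79598987 to 79721141), of the same subgroup, had 4 sites and the remaining high one, inside the gene at 79639868 with 153.5 and 72.8. Col9a1, Col16a1 and Col22a1 had 3 each and Col19a1 had 2, and the highest-ranking site of each scored 36.0 to 85.2 in replicate 1 and 13.4 to 39.1 in replicate 2.

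The membrane-spanning collagens included a gene with many sites deep inside it. Col25a1 (chromosome 3, 130180358 to 130599884), a brain-enriched transmembrane collagen, had 26 sites, 25 of them inside, and at 419527 bp it is the longest collagen gene. Counted by the nearest gene end alone it had 7, below the 12 of Col14a1, the 11 of Col24a1 and the 10 each of Col5a1 and Col28a1. That way of counting leaves out sites over 100 kb from a gene end, and most sites inside Col25a1 lay that deep. The lower count is thus no sign that they belong to other genes. The density of Col25a1, 5.96 sites inside per 100 kb, was above the median of 1.84 for long protein-coding genes. It was close to Col4a3 with 5.92 and Col5a1 with 5.88. Col1a1 had 5.95, but from 1 site inside a gene of 16.8 kb. The highest site of Col25a1, at 130300691, scored 116.3 in replicate 1 and 63.4 in replicate 2. Col13a1 had 8 sites, up to 90.4 and 39.1, and Col23a1 had 7, up to 77.0 and 25.3.

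Col15a1 and Col18a1, the multiplexin genes of basement membrane zones of vessels, had 7 sites each, with different strength. Col15a1 (chromosome 4, 47207655 to 47313167) had 3 high sites upstream of the gene, at 165.7 and 75.0, 131.4 and 71.2, and 120.0 and 47.0 in replicates 1 and 2, all among the 10000 highest summits of both. Col18a1, the precursor of endostatin, had none among them, and its highest site scored 62.0 and 32.0. Col28a1 (chromosome 6, 7997100 to 8193709) had 10 sites, all inside, with the highest-ranking site of any collagen gene at 8093809, at 208.8 and 100.7. Col26a1 had 1 site, at 110.3 and 48.4. Among short-chain collagens Col8a1 (chromosome 16, 57624256 to 57754737), a vascular matrix chain, had 4 sites, led by one inside at 143.9 and 75.5.

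**Figure D5:**
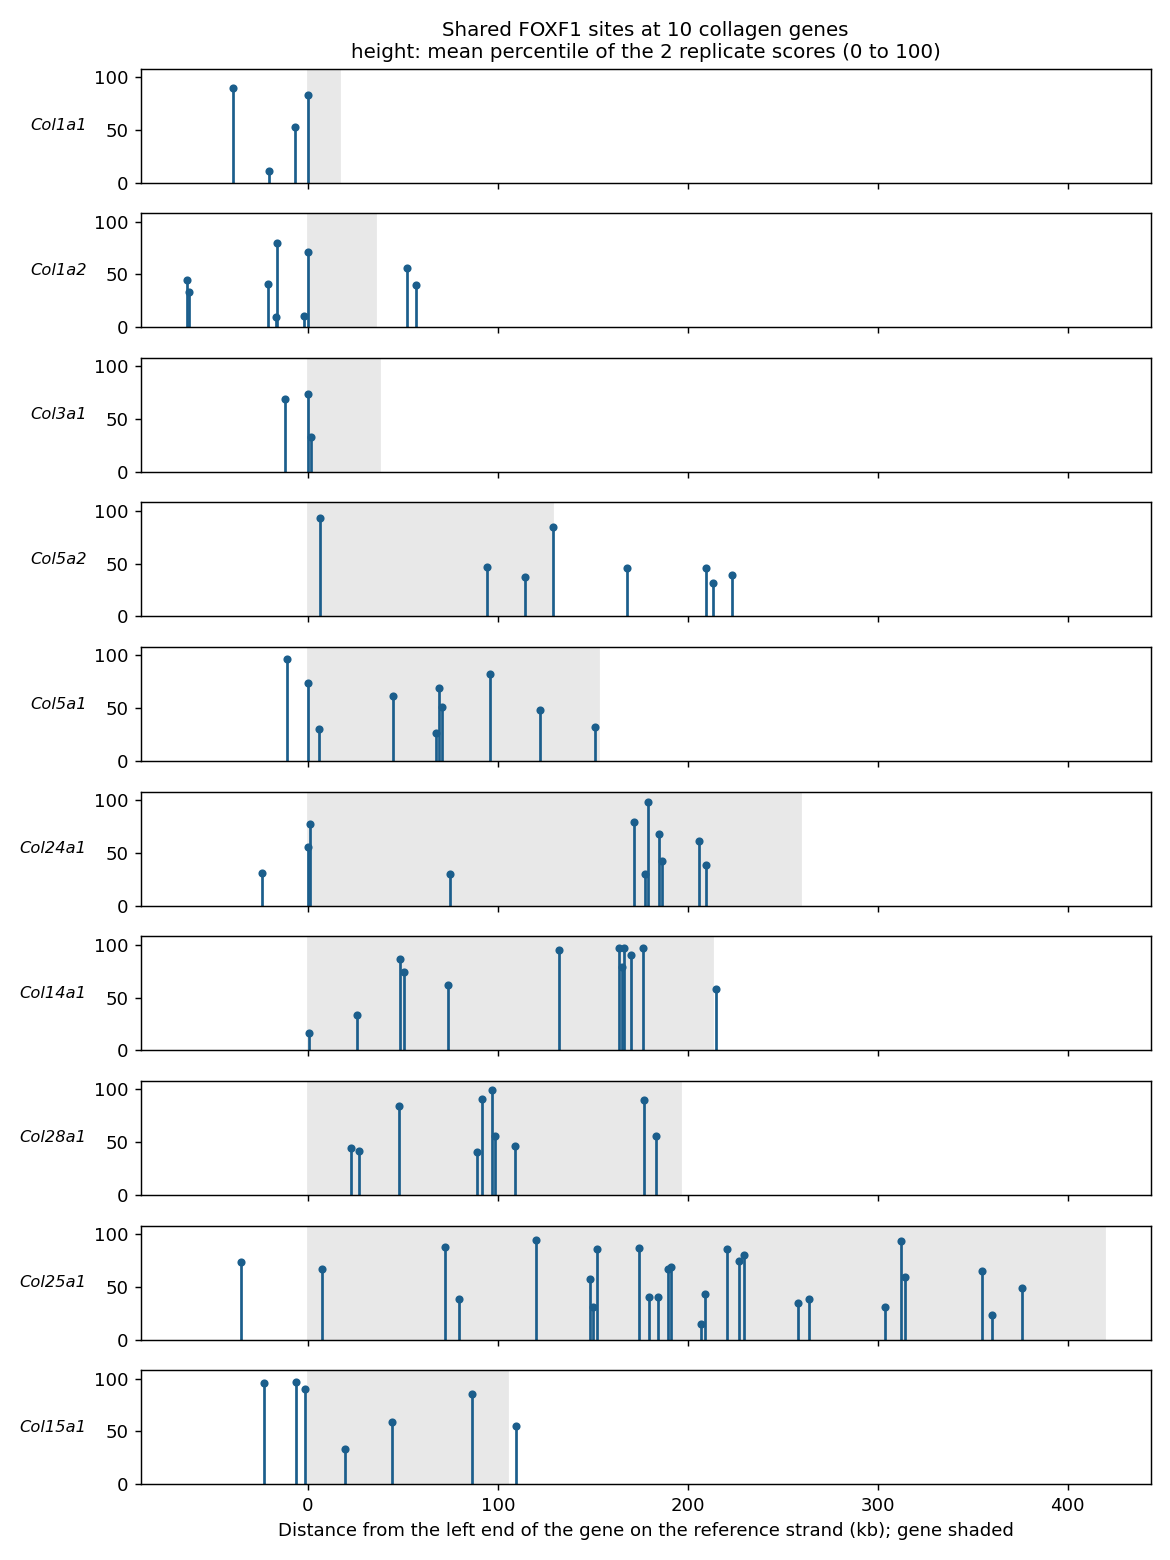
Shared FOXF1 sites at 10 collagen genes, placed by distance from the left end of the gene on the reference strand (horizontal, kb), with the gene shaded. The height of each line is the mean of its percentiles in both replicate lists (0 to 100). Col1a1, Col1a2 and Col3a1 have sites at the left end and outside, and Col14a1, Col24a1 and Col28a1 have groups of sites within the gene.

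The 10 genes without a shared site were Col5a3, Col7a1, Col8a2, Col9a2, Col9a3, Col10a1, Col11a1, Col11a2, Col17a1 and Col20a1. All but Col11a1 are among the 22 shorter collagen genes. Col9a2, Col9a3, Col10a1, Col11a1 and Col11a2 encode chains best known from cartilage, while Col2a1, Col9a1 and Col27a1, also active in cartilage, had 1, 3 and 3 sites. Col7a1 and Col17a1 encode collagens that anchor squamous epithelia. For 7 of the 10 no summit of either replicate was counted either. Replicate 1 alone had 1 summit for Col5a3 with a score of 7.76, 1 for Col8a2 with 11.2 and 2 for Col17a1 with up to 16.2, and replicate 2 had none. With summits of replicate 1 alone 37 collagen genes had 1, against 72.4% of protein-coding genes, and with replicate 2 alone 34, against 65.3%.

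Some of these genes nevertheless lay close to a site counted for a neighbour. The nearest shared site of Col17a1 lay 2264 bp beyond its downstream end, scoring 75.9 and 40.0, but was counted for Slk. From the start of Col17a1 the nearest shared site was 39226 bp away. For Col7a1 and Col8a2 the nearest lay 6784 and 7335 bp beyond the downstream end. That of Col11a2 lay 6991 bp upstream, and that of Col9a3, whose strand was not available, 8747 bp to its left. These too were counted for other genes. Col11a1 (chromosome 3, 114030479 to 114220756) was the most isolated, with its nearest shared site 400373 bp away. At the limits of the rule, the farthest site counted lay 99207 bp from Col8a1, at 27.6 and 8.14, and the nearest left out 102081 bp from it, at 64.1 and 26.9. The widest gap between paired summits was 97 bp, and the narrowest gap left out was 107 bp, at a region inside Col4a1 that scored 19.2 and 10.8.

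The genes that make, cross-link, bind and degrade collagen were counted by the same rule, against the 60.7% of all protein-coding genes. Of 19 genes of collagen synthesis and folding 18 had a shared site (94.7%), with a median of 2 sites over genes of median length 16.7 kb. The exception was P3h4, and the most sites were at the prolyl hydroxylase gene P3h2 with 10, the glycosyltransferase gene Colgalt2 with 9 and Sparc, a collagen-binding matrix protein, with 8. Of 13 genes of processing and cross-linking 12 had one (92.3%, median 2), all but the procollagen enhancer gene Pcolce, led by the proteinase genes Tll1 with 9 and Adamts2 with 6. Tll1 had the highest site of that list, at 168.5 in replicate 1 and 86.4 in replicate 2. Lox, the main cross-linking enzyme gene, had 1.

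Of 10 collagen receptor genes 8 had a site (80.0%, median 4), all but Itga10 and the platelet receptor gene Gp6. The integrin gene Itga1 had 29 sites and its neighbour Itga2 had 12, and the discoidin receptor genes Ddr1 and Ddr2 had 3 and 4. Of 10 genes of breakdown and its inhibition 6 had a site (60.0%, median 2). The inhibitor gene Timp3 had 17, the highest of them 26925 bp outside the gene at 191.0 and 89.4, while Mmp2 and Timp2 had 3 each. Mmp1a, Mmp9, Ctsk and Timp1 had none. Length differed between the lists, with medians of 57.9 kb for processing and cross-linking, 62.8 kb for receptors and 11.8 kb for breakdown, against 17.2 kb over all protein-coding genes. The 60.7% is thus not matched in length to these lists. For synthesis and folding the median of 16.7 kb was near the 17.2 kb. No test was made.

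Pairing of summits between the replicates was about as frequent at collagen genes as elsewhere. Of 256 replicate 2 summits there, 87.1% had a partner (95% exact interval 82.4 to 91.0%), against 83.4% of all replicate 2 summits. Of 510 replicate 1 summits, 43.7% had one (39.4 to 48.2%), against 47.5% of all. These intervals cover counting error only. The 287 replicate 1 summits without a partner had a median score of 10.8. Spearman's rho of the paired scores was 0.89 across the 223 sites, against 0.88 across all shared sites; sites are not independent, and the same input served for both lists.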

How the data were processed

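FOXF1 was immunoprecipitated from fetal mouse lung chromatin in 2 replicates. Per the labels, pools of 3 lungs were fixed in 1% formaldehyde, and 10 µg of chromatin, cut with micrococcal nuclease and sonicated, was used with 7 µg of antibody. The authors called peaks with MACS2 on mm10, per the submitters' processing notes, in 1 list per replicate against a 2% input. The aligner, its settings, the MACS2 options and the depth are not given in any source used here, so no interval on a score was possible. Each deposited entry is a 1-base summit whose score is a −log10 p or q value; which of them is not stated, and the lowest were 2.04 and 2.02. Such scores depend on depth and were read by rank within a list.

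Mitochondrial summits (10 and 6) were set aside. Sites were paired and assigned with Python 3.11.15, NumPy 2.4.6 and pandas 2.3.3, in code tested on simulated summits. Genes came from RefSeq on GRCm38.p6, whose gene table gives neither strand nor exons, so introns and exons were not told apart. Col21a1, listed among the classes, was not in the gene table used here. With 1 group of 2 replicates no test was made, and counts are given beside the same counts over all protein-coding genes. Every collagen gene is counted in its class. Values are given for the 10 with most sites, the 10 with the highest site, those without a site, the type IV genes and the major fibrillar genes, and others by their highest site. The members, classes and lists were chosen with earlier results of these data known. Pair distance, score minimum, window, assignment and use of 1 list were varied.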

Additional observations from a re-analysis of the deposited data

How the results depend on the processing

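The 34 collagen genes with a site, the 223 sites, the median of 3, the 7.62% within 1 kb of an end and the 60.7% of all protein-coding genes moved by at most 1.5 times at pair distances of 50 and 200 bp, at a score of at least 10, in windows of 20 and 5 kb, by nearest end alone, inside the gene alone and with double counting removed, the last added after the data were seen. With the 10000 highest summits of each replicate, 17 collagen genes had 34 sites, with a median of 0 and 2.94% near an end, against 16.6% of all protein-coding genes with a site. With 1 list alone, collagen genes with a summit ranged from 34 to 37, summits from 256 to 510, the median from 3.5 to 7, the share near an end from 5.49 to 8.2% and the share of protein-coding genes from 65.3 to 72.4%. The values of 510 and 7 came without replicate 2, whose list is shorter. Counts of single genes were less stable. Of the 44, the number that moved by over 1.5 times was 34 without replicate 2, 33 with the 10000 highest summits, 15 inside the gene alone, 12 and 8 in windows of 5 and 20 kb, 11 at a score of at least 10, 6 by nearest end alone, 3 with double counting removed, 1 at 50 bp, and 0 at 200 bp and without replicate 1. Without replicate 2 Col6a3 had 21 summits against 6 shared sites and Col12a1 13 against 4, and by nearest end alone Col4a1 and Col4a2 had 23 each. No paired analysis was possible because the result comes from no test and there is 1 group of replicates. What depth limits could not be assessed, since it is not given, and the input was used here only through the peak calls.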

Other observations

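Some high summits at collagen genes had no partner within 100 bp but had a high summit of the other replicate nearby. Whether such summits mark 1 bound region or separate ones was not tested. Inside Col28a1 the highest summits without a partner scored 117.5 in replicate 1 and 59.3 in replicate 2 and lay 282 bp apart. In Col25a1 they scored 94.5 and 53.3 at 419 bp, in Col14a1 84.0 and 51.8 at 713 bp, and near Col6a1 69.4 and 26.9 at 258 bp. Of the 33 unpaired replicate 2 summits at collagen genes, 29 (87.9%) had a replicate 1 summit within 1 kb, against 85.1% of all unpaired replicate 2 summits. Of the 287 unpaired replicate 1 summits, 51 (17.8%) had a replicate 2 summit within 1 kb, against 20.3% of all.

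The laminin chain genes, whose products form the other network of basement membranes, all had a shared site, 11 of 11 against 60.7% of all protein-coding genes and 88.2% of those at least as long as the median collagen gene. Only 4 of the 11 were longer than the median collagen gene, so the 88.2% is not matched to them in length. The laminin genes had a median of 6 sites and a median length of 64.5 kb, against medians of 3 sites and 114 kb for the collagen genes and 1 site and 17.2 kb for all protein-coding genes. Lamc1, the common gamma chain gene, had 20 and Lama4, a chain of vascular basement membranes, had 15, while Lamb3 and Lamc3 had 1 each. No test of this difference was made.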
